A study of Mus musculus with 65 samples.

Results

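A set of 7 genes of microglia and other macrophages is described here, as read in 65 single-cell libraries of the developing mouse cortex: C1qa, C1qb, C1qc, Spi1, Trem2, Ly86 and P2ry12. They are 7 of the 10407 genes in the deposited tables and were chosen by their symbols, with earlier results of these data known: 4 of them, Spi1, C1qa, Trem2 and Ly86, had been selected on their E15 over E12 ratio. The levels by group are therefore a description, and no test is attached to them. The study set cortical apical progenitors moved into a younger brain against progenitors left in place. The transplanted group had 19 libraries of E15 progenitors in an E12 host brain. The E15 group had 26 libraries and the E12 group 20, both of wild-type cells named after Flash Tag, a dye that marks cells dividing at the ventricle. All animals were of the CD1 strain, and the labels give every library the same source, neuronal progenitors. Single cells were collected with a patch pipette (Patch-seq). Transplanted cells were surrounded by the host's own cells, and no label names an animal, litter or slice, so each group counts as 1 sample.

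Microglia are the resident macrophages of the brain, come from yolk sac progenitors and settle in the cortex while neurons are still being born there. They are not made by cortical progenitors. Spi1 encodes PU.1, the ETS family factor on which the myeloid lineage depends. C1qa, C1qb and C1qc encode the chains of C1q, the recognition molecule of the classical complement pathway, which microglia secrete and which tags synapses and debris. Trem2 is a lipid-sensing surface receptor that signals through the adaptor Tyrobp (DAP12). Ly86 (MD-1) is a secreted partner of the Toll-like surface protein Cd180, and P2ry12 is an ADP receptor that steers microglial processes and marks the surveying state.

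The C1q genes lie side by side on chromosome 4 of GRCm38, all on the minus strand: C1qb at 136880129 to 136886187, C1qc at 136889804 to 136893065 and C1qa at 136895917 to 136898803. The cluster spans 18675 bases, and the annotation has 0 other genes wholly inside it. Spi1 lies on chromosome 2 (91082390 to 91115756, plus strand), Trem2 on chromosome 17 (48346401 to 48354147, plus), Ly86 on chromosome 13 (37345208 to 37419036, plus) and P2ry12 on chromosome 3 (59216272 to 59262871, minus). P2ry12 overlaps Med12l, on the opposite strand, and whether reads were counted by strand is not given in the sources used here, so reads of these 2 genes cannot be told apart. The other 6 members overlap 0 annotated genes.

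Because the members moved together across libraries, the 250 bases before each start were searched for the core of the PU.1 site, GAGGAA, on both strands (GAGGAA or TTCCTC). RefSeq promoters (GRCm38.p6) matched 5 of the 7 members; C1qa and Spi1 were not matched. The core stood in 3 of the 5, once each, and in 23.3% of all 32851 promoter windows of the same length. The composite ETS and IRF element, GGAA and GAAA parted by 2 bases of any kind, stood in 0 of the 5 and in 2.30% of all windows. The 3 windows that hold the core are shown 5′ to 3′ on the gene's own strand, with the core in capitals; they are chr4:136886201-136886450 for C1qb, chr4:136892915-136893164 for C1qc and chr17:48346151-48346400 for Trem2.
C1qb: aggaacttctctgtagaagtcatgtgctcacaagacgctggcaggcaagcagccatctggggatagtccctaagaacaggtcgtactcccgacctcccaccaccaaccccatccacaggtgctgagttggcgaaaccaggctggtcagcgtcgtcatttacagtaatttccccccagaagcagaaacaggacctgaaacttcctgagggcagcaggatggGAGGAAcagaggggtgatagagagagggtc
C1qc: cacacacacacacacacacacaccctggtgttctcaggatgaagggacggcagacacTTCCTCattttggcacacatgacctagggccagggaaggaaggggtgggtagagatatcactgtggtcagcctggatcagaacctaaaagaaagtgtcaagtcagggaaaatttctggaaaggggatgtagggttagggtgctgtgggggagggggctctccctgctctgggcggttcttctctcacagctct
Trem2: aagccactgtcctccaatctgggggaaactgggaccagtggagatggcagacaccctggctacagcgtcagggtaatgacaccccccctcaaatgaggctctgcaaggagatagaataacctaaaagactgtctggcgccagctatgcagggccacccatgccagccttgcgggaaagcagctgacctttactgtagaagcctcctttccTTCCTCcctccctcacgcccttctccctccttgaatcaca
Counted from the RefSeq start that ends each window, the core begins 30 bases upstream in C1qb, 193 in C1qc and 40 in Trem2. The RefSeq start lies 13 bases before the GENCODE start given above in C1qb and 151 bases inside the gene in C1qc, and it is the same base in Trem2. In the windows without the core, it lies 137 bases inside the gene in Ly86 and 114 bases before the GENCODE start in P2ry12. The 5 windows thus do not cover the same stretch around the GENCODE starts. Counted from the GENCODE starts, the core begins 43, 42 and 40 bases upstream in C1qb, C1qc and Trem2. A match describes these letters and is not a measured site.

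Reads per library, recovered from the deposited values, ranged from 22358 to 3622411 in the transplanted group (median 166134), from 11449 to 4560871 at E15 (median 998630) and from 10928 to 1635767 at E12 (median 148824). The number of genes read had medians of 5035, 7497.5 and 3748.5 in transplanted, E15 and E12 libraries. Libraries with over 8000 genes read, called many-gene libraries here, were 5 of 19 transplanted, 11 of 26 E15 and 0 of 20 E12 libraries. The limit falls at no gap in the number of genes read: transplanted replicate 19 had 7827 and transplanted replicate 14 had 8193. The limit was chosen after marker levels of these data had been seen, and the members' and lists' sums are also given without these libraries. Progenitor RNA was present in each group, as labelled: 19 of 20 apical progenitor genes were measured and summed to 8275 CPM in transplanted, 7785 in E15 and 10374 in E12 libraries. With the many-gene libraries left out, the progenitor sums were 16846, 21099 and 10374 CPM, so that E12 had the lowest and not the highest. Levels are given as CPM, the reads of a gene scaled to a fixed total, of the reads of a library, or of the added reads of a group. The kit reads the 3' end and carries no molecular identifiers, so intervals (95%, exact) cover counting error only, and levels are compared between libraries and not between genes.

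Summed, the 7 members made up 593 CPM of the transplanted reads (580 to 607), 1614 CPM of the E15 reads (1601 to 1626) and 13.6 CPM of the E12 reads (10.5 to 17.2). That is 7544, 60474 and 67 reads. By library, the sum ran from 0 over a median of 132 to 13659 CPM in the transplanted group, from 0 over 376 to 4900 CPM at E15 and from 0 over 14.9 to 288 CPM at E12. The groups overlapped: 4 transplanted, 3 E15 and 5 E12 libraries had no read of any member, while 4 transplanted, 9 E15 and 0 E12 libraries passed 1000 CPM. In added reads, more libraries with RNA of the members and more of it in each cannot be told apart. Reads of at least 4 of the 7 members were present in 9 of 19 transplanted libraries (47.4%, 24.4 to 71.1), 18 of 26 E15 libraries (69.2%, 48.2 to 85.7) and 4 of 20 E12 libraries (20%, 5.73 to 43.7). All 7 members were read together in 2 transplanted, 12 E15 and 0 E12 libraries. With every library thinned to 10000 reads, where 1 read is 100 CPM, at least 4 members were left in 3 transplanted, 10 E15 and 0 E12 libraries.

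**Figure D1:**
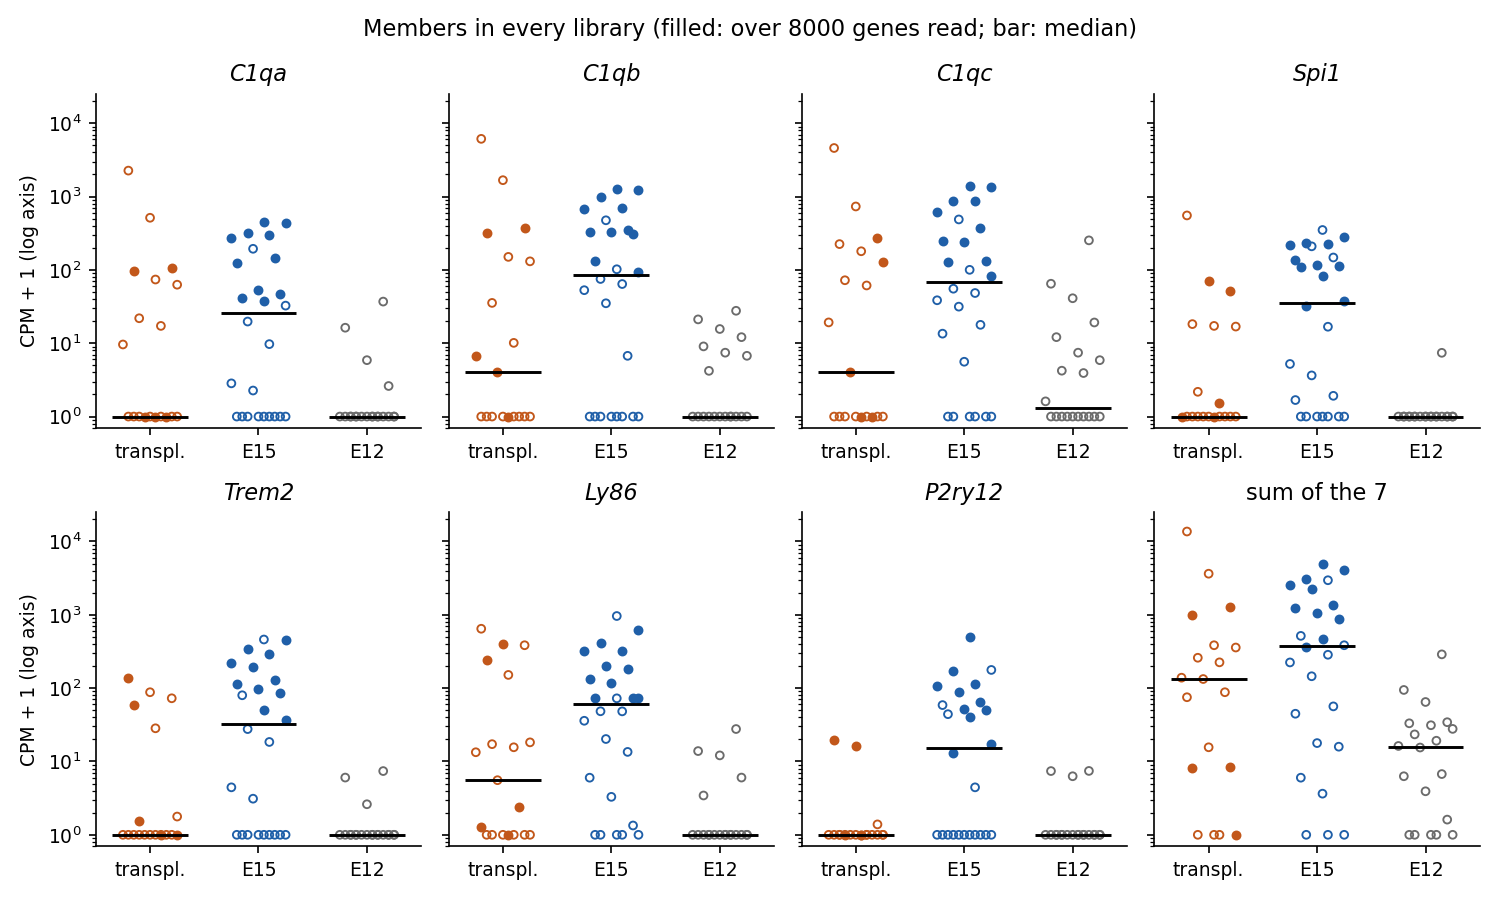
CPM + 1 of each member and of their sum (log axis) in every transplanted, E15 and E12 library; filled points are many-gene libraries and bars are medians. The highest sum is 13659 CPM in a transplanted library, and the median of the sum is 132, 376 and 14.9 CPM in the 3 groups.

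Many-gene libraries carried the members unevenly. All 11 at E15 had reads of all 7 members. Among the 5 transplanted ones, replicates 6 and 14 had all 7 (1269 and 1001 CPM), while replicate 15, the one with the most genes (10149), held 7.45 CPM, replicate 17 held 7.10 CPM and replicate 4 had no member read among 989107 reads. Across libraries, log2(CPM + 1) of the summed members went with the number of genes read at r = -0.10 in the 19 transplanted, r = 0.82 in the 26 E15 and r = -0.30 in the 20 E12 libraries. Against the apical progenitor sum, r was -0.23, -0.72 and -0.37 in the same groups. These points share depth and the total they are scaled by, and the values are descriptions. The sum of 13 ventral telencephalon and interneuron genes went with the members at r = -0.32 in transplanted and r = 0.52 in E15 libraries. The part of depth and of other cells' RNA in the members' levels was not tested.

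**Figure D2:**
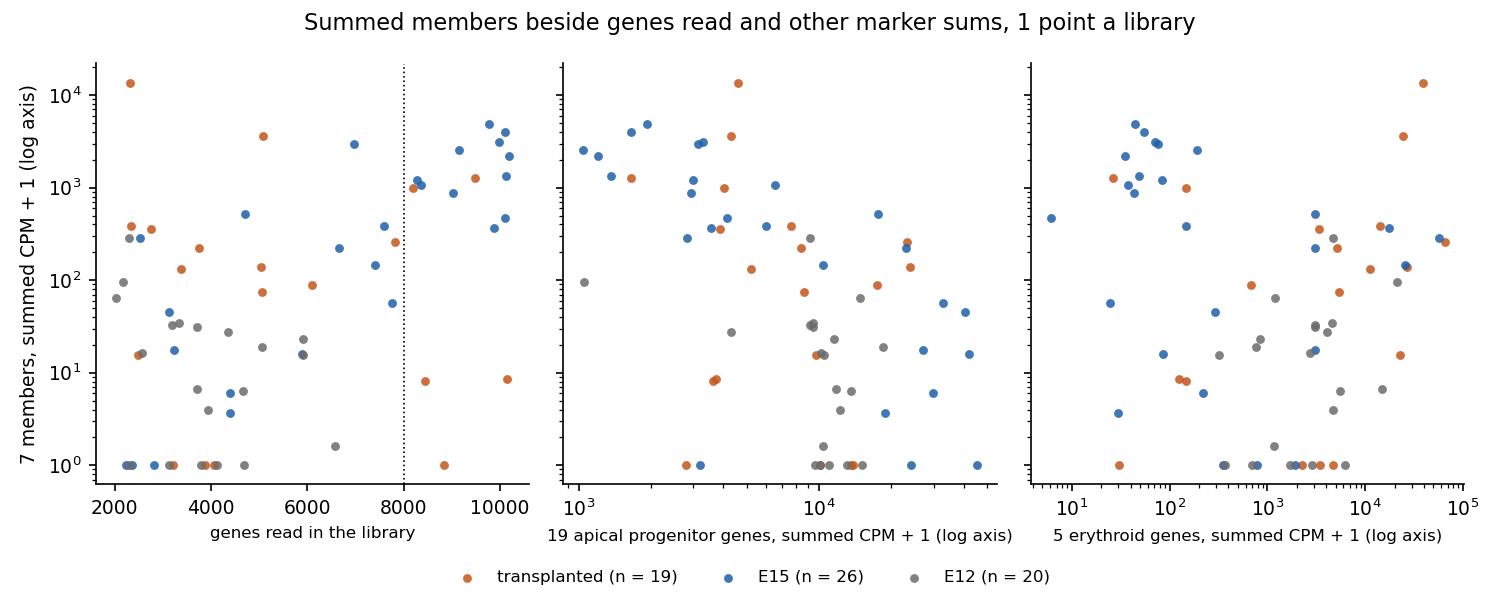
Summed members (CPM + 1, log axis) of each transplanted, E15 and E12 library against the genes read (dotted line at 8000), the summed 19 apical progenitor genes and the summed 5 erythroid genes. At E15 the member sum is high where many genes were read (r = 0.82) and low where progenitor genes are high (r = -0.72), and the 2 highest transplanted libraries have erythroid sums of 39223 and 24584 CPM.

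With the many-gene libraries left out, the members summed to 955 CPM in 14 transplanted, 504 CPM in 15 E15 and 13.6 CPM in 20 E12 libraries. Each of the first 2 sums rested mainly on 1 library. Transplanted replicate 18 held 69.7% of the member reads there, and 354 CPM remained without it. E15 replicate 10 held 79.0%, and 122 CPM remained without it.

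C1qb, the chain with the most transplanted reads, ran from 0 over a median of 3.04 to 6115 CPM in transplanted libraries, from 0 over 83.0 to 1249 CPM at E15 and from 0 over 0 to 26.7 CPM at E12. It was read in 10 of 19 transplanted, 18 of 26 E15 and 8 of 20 E12 libraries. In added reads it stood at 237 CPM in transplanted (228 to 245), 446 CPM in E15 (439 to 453) and 4.45 CPM in E12 libraries (2.79 to 6.74). The E12 libraries lay low, and transplanted and E15 libraries overlapped. C1qc ran from 0 over 3.04 to 4586 CPM in transplanted libraries, from 0 over 67.4 to 1396 CPM at E15 and from 0 over 0.306 to 252 CPM at E12. It was read in 10, 20 and 10 libraries of these groups, the member seen in most E12 libraries. In added reads C1qc stood at 122 CPM in transplanted (116 to 128), 455 CPM in E15 (448 to 462) and 4.45 CPM in E12 libraries (2.79 to 6.74). C1qa ran from 0 over 0 to 2256 CPM in transplanted libraries, from 0 over 25.2 to 453 CPM at E15 and from 0 over 0 to 35.9 CPM at E12. It was read in 9, 17 and 4 libraries, and in added reads it stood at 69.2, 164 and 1.01 CPM in transplanted, E15 and E12 libraries.

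All 3 chains were read in 8 transplanted, 16 E15 and 2 E12 libraries, and exactly 1 of them in 3 transplanted, 3 E15 and 8 E12 libraries. Among libraries with at least 30 C1q reads, 5 transplanted and 16 E15, the chains' shares of these reads were close in most and far apart in a few. The median share of C1qb was 57.3% in transplanted (47.2 to 61.9) and 43.2% in E15 libraries (0 to 94.0). That of C1qc was 29.5% (23.6 to 36.7) in transplanted and 41.8% (4.27 to 100) in E15 libraries, and that of C1qa 17.4% (8.65 to 17.8) and 13.6% (0 to 18.9). C1qb had more reads than C1qc in 5 of 5 transplanted and 9 of 16 E15 libraries. E15 replicate 13 had 160 reads of C1qc and none of C1qa or C1qb, which allows each a share of up to 1.88% of the C1q reads (3 counts). E15 replicate 2 was the opposite case, with 110 of 117 C1q reads from C1qb. Both had high progenitor sums, of 32833 and 22993 CPM in replicates 13 and 2.

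**Figure D3:**
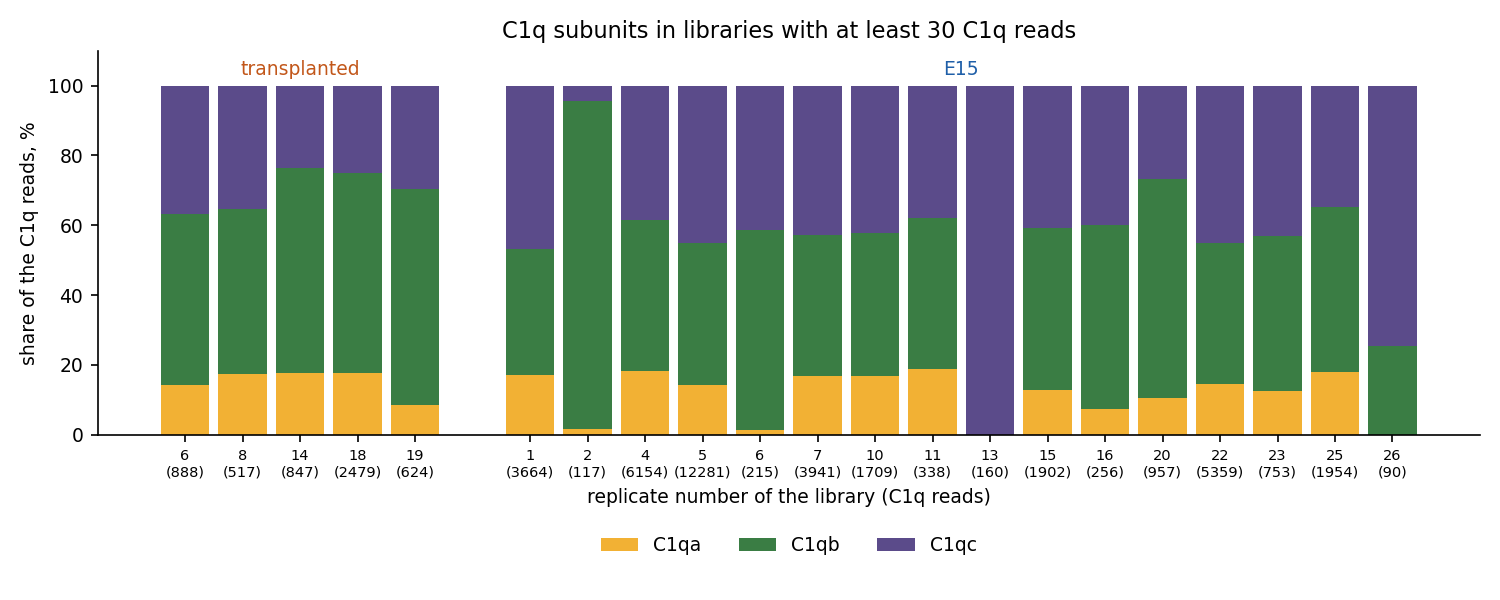
Share of C1qa, C1qb and C1qc in the C1q reads of each of the 5 transplanted and 16 E15 libraries with at least 30 such reads; the number under a bar is the replicate, with its C1q reads in brackets. C1qb takes 47.2 to 61.9% in the transplanted libraries, E15 replicate 2 is almost wholly C1qb, and E15 replicate 13 wholly C1qc.

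Spi1 ran from 0 over 0 to 551 CPM in transplanted libraries, from 0 over 33.9 to 349 CPM at E15 and from 0 over 0 to 6.40 CPM at E12. It was read in 8 of 19 transplanted, 19 of 26 E15 and 1 of 20 E12 libraries, and the E12 reads were 2 in replicate 2. In added reads it stood at 18.6 CPM in transplanted (16.3 to 21.2), 112 CPM in E15 (109 to 115) and 0.405 CPM in E12 libraries (0.0490 to 1.46). The highest E15 level was in replicate 14, which had 80 Spi1 reads beside 2 of C1qa, 17 of C1qb and 7 of C1qc, an Aif1 level of 1121 CPM and no P2ry12. Aif1 encodes Iba1, a calcium-binding protein of macrophages.

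Trem2 ran from 0 over 0 to 137 CPM in transplanted libraries, from 0 over 30.9 to 459 CPM at E15 and from 0 over 0 to 6.40 CPM at E12. It was read in 7, 17 and 3 libraries of these groups and stood at 30.1 CPM in transplanted (27.2 to 33.3), 139.5 CPM in E15 (136 to 143) and 0.809 CPM in E12 libraries (0.221 to 2.07) in added reads. Transplanted replicate 2 had 28 Trem2 reads and no read of the other 6 members among 322214 reads. Tyrobp, through which Trem2 signals, was at 3.10 CPM in that library.

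Ly86 was the member read in the most transplanted and E15 libraries, 12 of 19 and 21 of 26, against 5 of 20 at E12. It ran from 0 over 4.55 to 644 CPM in transplanted libraries, from 0 over 59.4 to 961 CPM at E15 and from 0 over 0 to 26.7 CPM at E12. In added reads it stood at 113 CPM in transplanted (107 to 119), 212 CPM in E15 (207 to 217) and 1.62 CPM in E12 libraries (0.699 to 3.19). Transplanted replicate 5 had 20 Ly86 reads and no other member. Cd180, the surface partner of Ly86, was low throughout, at 1.18 CPM in transplanted, 5.39 CPM in E15 and 0 CPM in E12 libraries.

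P2ry12 ran from 0 over 0 to 18.5 CPM in transplanted libraries, from 0 over 14.2 to 504 CPM at E15 and from 0 over 0 to 6.43 CPM at E12. It was read in 3 of 19 transplanted, 15 of 26 E15 and 3 of 20 E12 libraries. In added reads it stood at 3.70 CPM in transplanted (2.72 to 4.91), 85.4 CPM in E15 (82.5 to 88.4) and 0.809 CPM in E12 libraries (0.221 to 2.07). Of the 47 transplanted reads, 24 were in replicate 14, 22 in replicate 6 and 1 in replicate 19. The highest transplanted library thus lay close to the E15 median, and 11 of the 26 E15 libraries had no read.

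**Figure D4:**
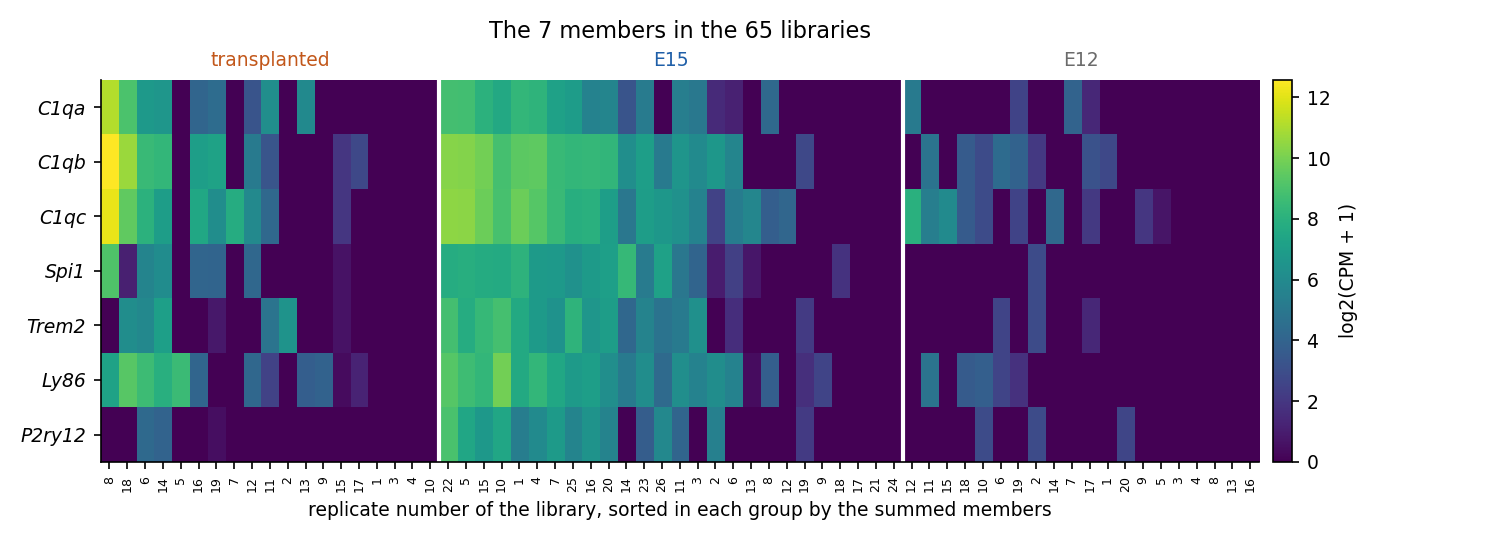
log2(CPM + 1) of the 7 members (rows) in the 65 libraries (columns), sorted within the transplanted, E15 and E12 groups by the summed members. The E15 libraries at the left of their block carry all 7 members, whereas P2ry12 is dark in all but 3 transplanted libraries.

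The makeup of the member reads differed as well. P2ry12 gave 0.623% of the member reads in transplanted libraries (0.458 to 0.828) and 5.29% in E15 libraries (5.12 to 5.48). Spi1 gave 3.14% (2.76 to 3.56) in transplanted and 6.94% (6.74 to 7.15) in E15 libraries, and Trem2 gave 5.08% (4.59 to 5.60) and 8.65% (8.43 to 8.88). C1qb made up 39.9% in transplanted and 27.6% in E15 libraries, and Ly86 18.98% and 13.1%. These shares rested on few libraries. Without transplanted replicate 18, which held 40.9% of the transplanted member reads, P2ry12 gave 1.05%, Spi1 5.30% and Trem2 7.23% of the transplanted member reads. Without transplanted replicate 14 they gave 0.385%, 2.16% and 2.81%. Among libraries with at least 100 member reads, the P2ry12 share ran from 0 over 0.150 to 1.52% in 5 transplanted and from 0 over 4.27 to 19.3% in 17 E15 libraries. The groups overlapped, since 3 of the 17 E15 libraries had no P2ry12 read. The Spi1 share ran from 0.0324 over 4.04 to 6.86% in the transplanted and from 0.412 over 7.05 to 67.8% in the E15 libraries, and the Trem2 share from 0 over 1.97 to 13.7% and from 0 over 7.58 to 24.03%.

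The 2 transplanted libraries with the highest sums did not resemble each other or the E15 ones in full. Replicate 8 (39900 reads, 2316 genes) had 13659 CPM of the members: 90 reads of C1qa, 244 of C1qb, 183 of C1qc, 22 of Spi1 and 6 of Ly86, with no Trem2 or P2ry12, which its depth limits to 75.2 CPM each. Cx3cr1, the fractalkine receptor of microglia, was at 652 CPM there and Csf1r, the growth factor receptor of macrophages, at 351 CPM, and 22 of the 30 further microglia and macrophage genes measured were read. Replicate 18 (850956 reads) had 3630 CPM, with 1 read of Spi1 and no P2ry12 (up to 3.53 CPM). It carried Csf1r at 541 CPM and Fcer1g, an adaptor of Fc receptors, at 1723 CPM, but Cx3cr1 at 2.35 and Aif1 at 1.18 CPM. Both libraries also held embryonic globin: Hbb-y was at 22206 CPM in replicate 8 and 14758 CPM in replicate 18. Among E15 libraries, replicate 22 reached 4900 CPM with all 7 members, Csf1r at 901 CPM, Cx3cr1 at 352 CPM and no Hbb-y read. Replicate 10, the highest E15 library outside the many-gene ones, had 2957 CPM with all 7 members and 3.37 CPM of Dlx2, a ventral forebrain factor that was at 1388 CPM in replicate 22.

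The contrast of the ages, E15 over E12, is the one on which 4 members had been chosen. These groups differed in more than age: median reads were 998630 at E15 and 148824 at E12. Many-gene libraries were 11 of 26 at E15 and 0 of 20 at E12. All 7 members were above a log2 ratio of 1, a level that 25.3% of the 10193 genes measured reached, and the count is given as a description since the rule used this contrast. The ratios ran from 5.58 for P2ry12 to 6.39 for C1qc, with 6.79 for the sum (CPM ratio 119, 93.7 to 154). The median over all genes was -0.03. Without the many-gene libraries, 7 of 7 members were still above 1, beside 24.2% of genes, at 3.80 for C1qa to 5.84 for Ly86 and 5.12 for the sum. Over left-out libraries the sum's ratio stayed between 6.27 and 6.96.

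Transplanted over E15 libraries asks whether the younger host goes with another level, and the answer depended on the libraries and on how they were added. In added reads the sum was lower, with a log2 ratio of -1.44 (CPM ratio 0.368, 0.359 to 0.377). Lower by more than a log2 ratio of 1 were 5 of 7 members, beside 11.8% of genes: P2ry12 at -4.20, Spi1 at -2.52, Trem2 at -2.18, C1qc at -1.89 and C1qa at -1.23. C1qb and Ly86 stood at -0.91 each. Without the many-gene libraries, the sum was higher in transplanted libraries, at 0.92, with C1qb at 2.31, C1qa at 2.22 and C1qc at 1.19. P2ry12 (-4.75), Spi1 (-1.59) and Trem2 (-1.59) stayed lower, so that 3 of 7 members were past -1, beside 28% of genes. Taken as the mean CPM of single libraries, the sum's ratio was 0.12, with replicate 8 weighing as much as deeper libraries. Without transplanted replicate 18 the sum's ratio was -2.10, C1qa stood at -2.10 and C1qb at -1.73, and 7 of 7 members were past -1. Without transplanted replicate 14, which held 45.6% of the transplanted Spi1 reads and 56.1% of the Trem2 reads, Spi1 stood at -3.17, Trem2 at -3.13 and P2ry12 at -4.82. Without replicate 15 the sum's ratio was -0.96 and 4 members were past -1. The share of all genes past -1 is not given for single left-out libraries, so these counts cannot be set against it. Each pair of the 3 comparisons shares a group of libraries.

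Transplanted over E12 libraries, 6 of the 6 members with at least 5 CPM in either group were above a log2 ratio of 1, beside 22.9% of genes. Their ratios ran from 3.81 for Spi1 to 5.45 for C1qb, with 5.35 for the sum (CPM ratio 43.8, 34.4 to 56.5). P2ry12, under that minimum, had a ratio of 1.38 from 47 transplanted and 4 E12 reads. Without the many-gene libraries 6 of 6 were again above 1, beside 22.5% of genes, with 6.04 for the sum, and P2ry12 had 1 transplanted read and a ratio of -0.57. Without transplanted replicate 18 the sum's ratio was 4.69, with C1qa at 4.26, C1qb at 4.63, C1qc at 3.87 and Ly86 at 4.85. Without replicate 14, Spi1 stood at 3.16, Trem2 at 3.15 and P2ry12 at 0.76.

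The labels place the libraries in 8 pools, A to H, without saying what a pool is. They also give each library an IL number, again without saying what it is. It ran from 5 to 12 in the transplanted group, from 1 to 12 at E15 and from 1 to 7 at E12. Group and IL number thus run partly together, and their parts cannot be told apart. Libraries at E15 had a higher member sum than E12 libraries in 8 of 8 pools, by log2 ratios of 2.21 to 11.6. The highest was in pool H, where E12 is 1 library of 10928 reads with 0 member reads. Pool D also had 0 E12 member reads, so the size of both ratios rests on the pseudocount of 1 CPM. Transplanted libraries were lower than E15 ones in 6 of the 7 pools that hold both, with ratios of -8.30 to 2.58, and higher than E12 ones in 5 of 7. The exception was pool A, which has no many-gene library: its members summed to 1025 CPM in 4 transplanted, 171 CPM in 3 E15 and 36.1 CPM in 3 E12 libraries, and each of its 10 libraries had member reads. Its transplanted sum rested mainly on replicate 18, which held 3089 of the 3808 member reads. Pool E, also without many-gene libraries, had next to none, at 0 CPM in 1 transplanted, 42.3 CPM in 4 E15 and 1.31 CPM in 4 E12 libraries. Of its 170 member reads, 160 were the C1qc reads of E15 replicate 13. Pool B held 31174 of the 60474 E15 reads of the members. In pool C, counted among the pools with transplanted libraries lower, the groups were close, at 1193 CPM in transplanted and 1273 CPM in E15 libraries.

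**Figure D5:**
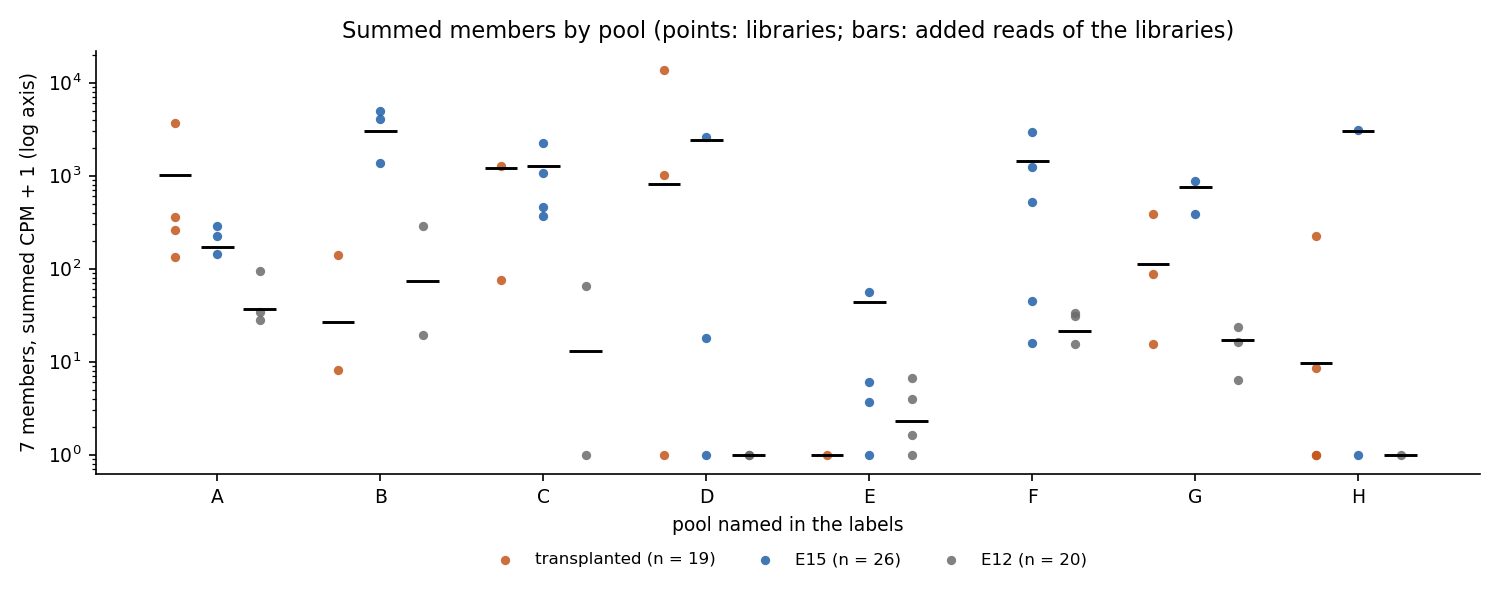
Summed members (CPM + 1, log axis) by pool, with transplanted, E15 and E12 libraries side by side; points are libraries and bars the added reads. Pool A is the pool in which the transplanted bar (1025 CPM) lies above the E15 bar (171 CPM). Transplanted replicate 18 holds 3089 of the 3808 member reads behind that transplanted bar.

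The deposited log10 residuals show far smaller differences than the reads. Averaged over the 7 members, they had a median of -0.0982 in transplanted, 0.149 in E15 and 0.0150 in E12 libraries. Removing the authors' directions gives a library without reads a value of its own: C1qb stood at 0.218 in E15 replicate 17, with 0 reads, and at 0.504 in E15 replicate 22, with 2160 reads. In transplanted replicate 4, also with 0 reads, it stood at -1.20.

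The members went together across libraries. Over the 21 pairs, r of log2(CPM + 1) was 0.21 to 0.88 in the 19 transplanted libraries (lowest for Spi1 and Trem2, highest for C1qb and C1qc) and 0.77 to 0.95 in the 26 E15 libraries. Over all 65 libraries it was 0.60 to 0.86. The genes most like the mean of the members, of 10385 compared over the 65 libraries, were Laptm5 (r = 0.92), a lysosomal membrane protein of blood cells, Gatm (0.89), an enzyme of creatine synthesis, Csf1r (0.89), Pld4 (0.88), an endosomal nuclease, the Fc receptors Fcgr3 and Fcgr1 (0.88 each), Fcer1g (0.88), Cd14 (0.87), the lipopolysaccharide co-receptor, Zfp36 (0.87), which destabilises messenger RNA, and Cd83 (0.87). The median r of all genes was 0.27. By rank correlation 7 of the 10 stayed among the first 10, and in the E15 libraries alone 5 did. Gatm was read in 11 transplanted, 20 E15 and 4 E12 libraries, at 56.0, 227 and 1.21 CPM.

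Some of the lists that follow share genes: Csf1r, Cx3cr1, Tyrobp, P2ry13, Gpr34, Irf8 and Ctss stand in more than 1. Beside list counts over all libraries stand 25.3% of all genes above 1 at E15 over E12 and 11.8% below -1 in transplanted over E15. With the many-gene libraries left out these shares were 24.2% and 28%. Of 30 further microglia and macrophage genes, 27 were above a log2 ratio of 1 at E15 over E12 and 0 below -1 (median 4.79), where 25.3% of all genes were above 1, and in transplanted over E15 libraries 22 were below -1 and 0 above 1 (median -1.56), where 11.8% of all genes were below -1. The list summed to 1188 CPM in transplanted, 3225 CPM in E15 and 226 CPM in E12 libraries. With the many-gene libraries left out the order of the first 2 groups turned, with 2018 CPM in transplanted, 1313 CPM in E15 and 226 CPM in E12 libraries. Of the 27 genes then measured in transplanted over E15 libraries, 16 were above 1 and 5 below -1 (median 1.22), and of 24 at E15 over E12, 19 were above 1 and 2 below -1 (median 2.84). Csf1r then stood at 125, 27.8 and 1.21 CPM and Fcer1g at 402, 172 and 6.68 CPM in transplanted, E15 and E12 libraries, while Aif1 stayed lower in transplanted libraries, at 55.0, 203 and 25.5 CPM. Transplanted replicate 18, with 850956 reads, had this list at 7587 CPM, Csf1r at 541 CPM and Fcer1g at 1723 CPM. Its part in the turned order was not tested. Over all libraries, Tyrobp was at 187, 504 and 32.8 CPM in transplanted, E15 and E12 libraries, Fcer1g at 200, 412 and 6.68, Aif1 at 74.9, 402 and 25.5, and Ctss, a lysosomal protease, at 119.5, 360 and 7.08. The number of these 30 genes read in a library had a median of 8 (1 to 28) in transplanted, 21 (0 to 30) in E15 and 3.5 (0 to 13) in E12 libraries. At least 15 were read in 8 transplanted, 14 E15 and 0 E12 libraries, and all of those also had at least 4 members.

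Of 12 further complement genes, 7 were above a log2 ratio of 1 and 1 below -1 among the 11 measured at E15 over E12 (median 1.52), beside 25.3% of all genes above 1. Without the many-gene libraries 3 of 8 were above 1 and 2 below -1 (median 0.02), beside 24.2% of all genes above 1. C3ar1 and C5ar1, the receptors of the C3a and C5a fragments, were at 25.8 and 16.3 CPM in transplanted, 36.5 and 29.3 CPM in E15 and 0.809 and 1.01 CPM in E12 libraries. With the many-gene libraries left out they were at 41.2 and 25.4 CPM in transplanted, 0.454 and 0.816 CPM in E15 and the same levels in E12 libraries. Calr, a chaperone that binds C1q, and C1qbp, a mitochondrial protein that binds it in vitro, were read widely and differed little, at 453 and 306 CPM in transplanted, 539 and 285 CPM in E15 and 786 and 354 CPM in E12 libraries.

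Of 10 genes of TREM2 and DAP12 signalling, 8 were above 1 at E15 over E12 and 0 below -1 (median 3.94), while 7 were below -1 in transplanted over E15 libraries (median -1.67). Vav1, an exchange factor downstream of the adaptor, was at 18.4, 26.3 and 0.202 CPM in transplanted, E15 and E12 libraries, and Apoe, a lipoprotein that Trem2 binds, at 351, 1144 and 190 CPM. Apoe is also made by glial progenitors. Of 9 partners and targets of Spi1, 7 were above 1 and 1 below -1 at E15 over E12 (median 3.03). Irf8, a DNA-binding partner of PU.1, was at 9.12 CPM in transplanted, 34.9 CPM in E15 and 0 CPM in E12 libraries.

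Of 7 purinergic and chemokine surface receptors, 7 were above 1 at E15 over E12 (median 3.77) and 6 below -1 in transplanted over E15 libraries (median -2.59). P2ry13, a close relative of P2ry12, was at 1.34 CPM in transplanted, 26.4 CPM in E15 and 1.21 CPM in E12 libraries, and Cx3cr1 at 5.50, 71.9 and 0.809 CPM. Gpr34, a lysophospholipid receptor, was at 5.03, 37.3 and 0 CPM. Cx3cr1 did not go with P2ry12 in every library: transplanted replicate 8 had it at 652 CPM with no P2ry12 read, and with the many-gene libraries left out it was at 6.03, 4.35 and 0.809 CPM in transplanted, E15 and E12 libraries. Of 5 Toll-like receptors and partners of Ly86, 5 were above 1 at E15 over E12 (median 3.995) and 4 below -1 in transplanted over E15 libraries (median -1.33). Cd14 was at 42.5, 153 and 2.43 CPM, and Tlr2 at 18.9, 41.2 and 0.405 CPM.

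In sums, the order of transplanted and E15 libraries turned in most of these pathway lists once many-gene libraries were left out. The TREM2 and DAP12 list then summed to 1094 CPM in transplanted, 1004 CPM in E15 and 353 CPM in E12 libraries, against 677, 1929 and 353 CPM over all libraries. The Spi1 list summed to 947, 413 and 363 CPM, against 537, 662 and 363 CPM. The purinergic and chemokine list summed to 46.1, 35.9 and 3.44 CPM, against 30.4, 185 and 3.44 CPM, and the Toll list to 122, 56.3 and 3.64 CPM, against 87.4, 237 and 3.64 CPM. Gene by gene, not all lists turned. In transplanted over E15 libraries, 1 of 8 TREM2 and DAP12 genes was then above 1 and 4 below -1 (median -1.20). Of 5 purinergic and chemokine genes, 1 was above 1 and 1 below -1 (median -0.66). Of 9 genes of the Spi1 list, 5 were above 1 and 0 below -1 (median 1.28). Of 3 Toll genes, 2 were above 1 and 0 below -1 (median 1.06). Among all genes, 28% were below -1. Transplanted replicate 18, with 850956 reads, stood at 3544, 1673, 190 and 140 CPM in the TREM2 and DAP12, Spi1, purinergic and Toll lists. The part of this library in the turned order was not tested. The complement sum kept transplanted below E15, at 967, 1720 and 1332 CPM, against 921, 1176 and 1332 CPM. Much of it came from Calr, C1qbp and Clu, at 433, 253 and 75.0 CPM in transplanted and 622, 376 and 545 CPM in E15 libraries. By gene, 5 of 11 in this list were then above 1 and 3 below -1 in transplanted over E15 libraries (median -0.52).

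Of 8 inflammatory cytokines measured, 8 were above 1 at E15 over E12 (median 4.44) and 8 below -1 in transplanted over E15 libraries (median -3.57), and the list summed to 97.0 CPM in transplanted, 1742 CPM in E15 and 115 CPM in E12 libraries. Ccl4, a chemokine, stood at 3.93, 663 and 8.50 CPM and Il1a, a cytokine, at 6.76, 221 and 0.607 CPM. The transplanted libraries richest in C1q differed: replicate 8 had Ccl4 at 727 CPM and the highest cytokine sum of the group, 2807 CPM, with no Il1a read, and replicate 18 had 0 reads of both. The cytokine list summed to 124 CPM in transplanted, 209 CPM in E15 and 115 CPM in E12 libraries once many-gene libraries were left out. Of 16 lysosome and phagocytosis genes, 9 were above 1 and 1 below -1 at E15 over E12 (median 1.43), and 6 were below -1 in transplanted over E15 libraries (median -0.89). Without the many-gene libraries 3 of 13 were above 1 and 0 below -1 at E15 over E12 (median 0.54). That is near the share of all genes above 1, 24.2%. In transplanted over E15 libraries 8 of 16 were then above 1 and 1 below -1 (median 1.16). Ctsd and Ctsb, proteases of every cell's lysosomes, were at 700 and 713 CPM in transplanted, 966 and 834 CPM in E15 and 238 and 539 CPM in E12 libraries. The lysosome list summed to 2396 CPM in transplanted, 3797 CPM in E15 and 1576 CPM in E12 libraries, and with the many-gene libraries left out to 3950, 2064 and 1576 CPM, which turns the order of the first 2 groups. Transplanted replicate 18 had the lysosome list at 16054 CPM, and its part in this was not tested.

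Markers of other cells were uneven. Of 10 border-associated macrophage genes 2 were measured, of 13 genes of other leukocytes 1, of 8 endothelial genes 1 and of 8 pericyte and fibroblast genes 1. Dab2 was at 2.20 CPM in transplanted, 20.9 CPM in E15 and 1.42 CPM in E12 libraries, and Stab1 at 25.9, 17.8 and 36.2 CPM. S100a8, of neutrophils, was at 2.60, 8.80 and 0.809 CPM, Egfl7, of endothelium, at 2.75, 2.99 and 18.4 CPM, and Col1a2, of fibroblasts, at 5.11, 5.84 and 0 CPM. Ttr, of choroid plexus, was at 18.7, 13.6 and 119.6 CPM and Olig2, of oligodendrocyte precursors, at 12.3, 11.05 and 2.23 CPM. The 5 erythroid genes summed to 15773 CPM in transplanted, 2636 CPM in E15 and 2958 CPM in E12 libraries. Their median log2 ratio in transplanted over E15 libraries was 2.63, beside -0.08 over all genes. With the many-gene libraries left out they summed to 43047, 6283 and 2958 CPM. These sums lean on transplanted replicate 19, with 2584656 reads and an erythroid sum of 64865 CPM, the highest of its group. By library, the median erythroid sum was 4698 CPM in transplanted, 116 CPM in E15 and 2946 CPM in E12 libraries. Over libraries the erythroid sum went with the members at r = 0.30 in transplanted and r = -0.25 in E15 libraries. Of 13 ventral telencephalon genes, 13 were above 1 at E15 over E12, with sums of 2249 CPM in transplanted, 3089 CPM in E15 and 345 CPM in E12 libraries. With the many-gene libraries left out the ventral sums were 1747, 643 and 345 CPM, and 5 of 11 genes were above 1 and 1 below -1 at E15 over E12. Over all libraries, at E15 over E12, 6 of 12 neuronal genes were above 1 and 2 below -1, 1 of 7 intermediate progenitor genes was above 1 and 1 below -1, while 12 of 19 apical progenitor genes were below -1 and 1 above 1. Without the many-gene libraries, 4 of 12 neuronal genes were above 1 and 1 below -1. Of 7 intermediate progenitor genes 1 was then above 1 and 0 below -1. Of 19 apical progenitor genes 6 were then below -1 and 4 above 1 (median -0.52). The part of these cells' RNA in the members' levels was not tested.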

How the data were processed

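Single-cell libraries were made with a 3' SMART-Seq v4 kit and Nextera XT, per the labels' protocols. The submitters' processing notes name STAR, HTSeq and the build mm10; versions are not given in the sources used here. The deposited values are log10 residuals, not the counts that the design had assumed: from the values themselves, the authors took log10 of 1 plus counts scaled to 100000 reads a library and removed 3 directions over libraries, 1 of them the mean. Whole reads were recovered by 2 routes, for 9852 genes from libraries at 0 and for 555 by a search for whole reads. Recovered values (356667 above 0) were whole to within 0.01 in 100% of cases, and 0 genes were ambiguous. On simulated data 100% of 2500 genes were recovered. The tables held 94.0 to 99.3% of a library's reads.

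Groups and pools came from the labels, and replicate numbers follow accession order. Each group's reads were summed and expressed as CPM of all genes in the tables. The log2 ratios used a pseudocount of 1 CPM, a minimum of 5 CPM in either group for counts of genes, and a limit of 1. Intervals are exact Poisson (counts), exact binomial (shares) and conditional binomial (ratios). No test was made, as each group is 1 sample.

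The members, the 19 lists and the limit of 8000 genes were chosen with earlier results of these data known. Named genes were the 7 members, the 10 most correlated genes, and from each list up to 4 by CPM and 3 by ratio; Med12l and the genes cited for single libraries fell outside or were picked after their values were seen. Alternatives were another scaling, totals, pseudocount, filter or mean, thinning to 10000 reads, ratios within pools, and left-out libraries and pools. Library totals recovered from the value of 1 read, member shares without each library and list counts without the many-gene libraries were added after the data had been seen. Positions are from GENCODE vM21. Software: Matplotlib 3.10.9, Numba 0.67.0, pandas 2.3.3, SciPy 1.17.1, NumPy 2.4.6, under Python 3.11.15.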

Additional observations from a re-analysis of the deposited data

How the results depend on the processing

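The E15 over E12 ratio of the summed members (6.79) kept its direction in every alternative. It was 4.94 as mean CPM of single libraries, 6.45 with a pseudocount of 5 CPM, 5.22 on libraries thinned to 10000 reads and 5.12 without libraries above 8000 genes. It ranged from 6.27 to 6.96 over left-out libraries and from 6.16 to 7.32 over left-out pools, and the count of members above 1 was 7 throughout. Here and below, the share of all genes beside such counts is given only for all libraries and without libraries above 8000 genes. Those shares stand with the ratios above.

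The transplanted over E15 ratio of the sum (-1.44) turned round in 3 alternatives: 0.12 as mean CPM, 0.28 on thinned libraries and 0.92 without libraries above 8000 genes. In these 3 the count of members below -1 was 3 and not 5. C1qa, C1qb and C1qc turned round with it, at 0.80, 0.75 and 0.28 as mean CPM, 0.99, 0.76 and 0.37 when thinned and 2.22, 2.31 and 1.19 without libraries above 8000 genes. The sum's ratio was -1.38 with median-of-ratios scaling and -3.20 as a mean within pools. It ranged from -2.10 to -0.96 over left-out libraries and from -2.08 to -0.77 over left-out pools, with 4 to 7 members below -1. The cause was not tested.

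The transplanted over E12 ratio of the sum (5.35) was 6.04 without libraries above 8000 genes and 3.48 as a mean within pools, and ranged from 4.69 to 5.83 over left-out libraries and from 4.58 to 5.84 over left-out pools, with 6 or 7 members above 1. P2ry12 turned round to -0.57 without libraries above 8000 genes, where it rests on 1 transplanted read.

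Libraries with at least 4 members, 9 transplanted, 18 E15 and 4 E12, were 3, 10 and 0 after thinning. With at least 3 reads asked of a member they were 5 transplanted, 17 E15 and 0 E12 libraries. Of the single members' ratios under the 9 settings other than left-out libraries, 44 of 63 stayed within counting error at E15 over E12, 35 of 63 in transplanted over E15 and 48 of 63 in transplanted over E12 libraries. No paired analysis by replicate number was possible because replicate numbers only follow accession order; the pools that the labels give served as blocks in the means within pools above. At a median depth of 148824 reads 1 read is several CPM, so E12 levels of single libraries near that are limited by depth.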
